A study of Homo sapiens with 12 samples.

Results

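The keratin genes encode the intermediate filament proteins of epithelial cells. They were taken here as the genes whose symbol on the arrays is KRT followed by a number and an optional letter, with pseudogenes and the keratin-associated protein families left out. Of the 55 keratin genes that RefSeq names, 44 had a probe set that carried their symbol alone, out of 19775 genes with such a probe set on the array. These comprised 24 type I genes (KRT222, which encodes a keratin-like protein, among them) and 20 type II genes. Where a keratin had several probe sets, as 9 of the 44 did, the brightest by its mean over all 12 arrays was used. KRT6A, KRT6B, KRT6C, KRT17, KRT26, KRT28, KRT34, KRT39, KRT81, KRT82 and KRT86 were not analysed here.

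A keratin filament is built from obligate pairs of one type I and one type II chain, so cells usually express the chains in characteristic partners. KRT5 and KRT14 form the filaments of basal, proliferating cells of stratified epithelia and of the myoepithelial layer of the mammary gland, with KRT15 as a further basal chain. KRT1 and KRT10 replace them in epidermal cells that leave the basal layer, KRT8 and KRT18 (with KRT7 and KRT19) are the chains of simple and luminal epithelium, and KRT6 with KRT16 is induced in activated or wounded epithelium. The filaments are anchored at desmosomes, which join neighbouring cells, and at hemidesmosomes, which fix basal cells to the basement membrane. The type I genes other than KRT18 lie in one cluster on chromosome 17 and the type II genes, together with KRT18, in another on chromosome 12. Notch1 is a cell surface receptor that is cut upon binding its ligand, after which its intracellular domain enters the nucleus and switches on target genes with the DNA-binding protein RBPJ.

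The arrays measured total RNA of MCF-10A cells, harvested 48 h after infection with a retrovirus. MCF-10A is an established line grown from human breast epithelium that does not form tumours. The 4 groups of 3 arrays received vector alone, the wild-type receptor at full length (full-length Notch1), the mutant Notch1 L1601P+∆P, or the fragment NICD. L1601P is a substitution in the receptor's heterodimerisation domain and ∆P removes its C-terminal PEST region, while NICD is the isolated intracellular domain; short descriptions of the NICD samples also carry the letters gfp, and the labels do not say whether the vector or the other constructs hold such a reporter. All groups share the line and the infection, and each construct was overexpressed in this 1 line on top of its own receptor. Samples are labelled as biological replicates with no further detail, so that a p-value here weighs a difference against the spread of these samples only, which may be technical. A bulk array cannot tell fewer cells of a type apart from less RNA per cell.

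Values are the deposited log2 signals, so that a difference of 1 is a doubling of signal, and signals of different probe sets are not set against each other. Array medians lay between 5.64 and 5.7 and single values between 2.27 and 15.01. The keratin probe sets had means from 3.11 to 13.67, with 14 of the 44 at 6 or more and 30 below it, near or under the array medians. The epithelial origin of the samples was visible in 5 mammary epithelial markers (EPCAM, CDH1, EGFR, ITGA6 and SFN), whose mean per array was 11.72 to 11.77 with vector, 11.73 to 11.79 with full-length Notch1, 11.60 to 11.63 with Notch1 L1601P+∆P and 11.15 to 11.22 with NICD. With NICD 4 of the 5 fell (limma adjusted p under 0.05), as did 18.1% of all genes, and CDH1 differed by 0.02 (limma adjusted p = 0.886). With Notch1 L1601P+∆P 2 of the 5 fell by the same measure, beside 2.95% of all genes. The mean of 6 fibroblast markers stayed between 5.08 and 5.24 on all 12 arrays. That of 3 endothelial markers stayed between 4.98 and 5.27, and that of 2 blood cell markers between 4.61 and 5.02. The dimmest of each list, LUM, CDH5 and PTPRC, lay near the lowest signals of the arrays. PECAM1 and CD3E were the brightest endothelial and blood cell markers. COL1A1 was the brightest fibroblast marker, at 7.7 with vector and 7.85 with NICD (limma adjusted p = 0.289). The 5 luminal hormone-sensing markers averaged 6.30 to 6.36 with vector and 6.03 to 6.11 with NICD, where 2 of them fell by the same measure. The part of these marker shifts in the keratin results was not tested.

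The first comparison asks which genes active Notch1 signalling changes in these cells. Against vector, 10 of the 44 keratin genes rose with NICD (KRT1, KRT5, KRT8, KRT10, KRT12, KRT14, KRT16, KRT23, KRT75 and KRT78) and 4 fell (KRT4, KRT15, KRT18 and KRT222). The size ran from a 5.83-fold fall of KRT15 to a 2.29-fold rise of KRT16. A call required a limma p, adjusted by Benjamini and Hochberg's method across the 19775 genes, under 0.05, and by that rule 9.54% of all genes rose and 18.1% fell. The median difference was 0.05 over the keratins and −0.02 over all genes. Of the 14 keratins at a mean signal of 6 or more, 6 rose and 3 fell, and of the 30 dimmer ones 4 rose and 1 fell. Bright genes were called more often in a separate fit of only the 11603 genes at 6 or more, adjusted over those genes alone. There 1670 rose and 3846 fell with NICD, against 1887 and 3573 of all 19775 genes in the main fit. The share among dimmer genes was not computed.

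With Notch1 L1601P+∆P the same comparison gave fewer calls. KRT1, KRT5, KRT10, KRT14 and KRT16 rose and KRT15 fell, that is 5 and 1 of 44, against 2.16% and 2.95% of all genes. The median difference was 0.09 over the keratins and −0.01 over all genes. Full-length Notch1 gave no keratin call in either direction by limma, with 0.0303% of all genes higher and 0.00506% lower; before adjustment 10 of the 44 keratins were higher and 1 lower at p under 0.05, beside 2.25% and 3.08% of all genes, and the lowest adjusted p was 0.767. These 3 comparisons share the vector arrays.

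**Figure D1:**
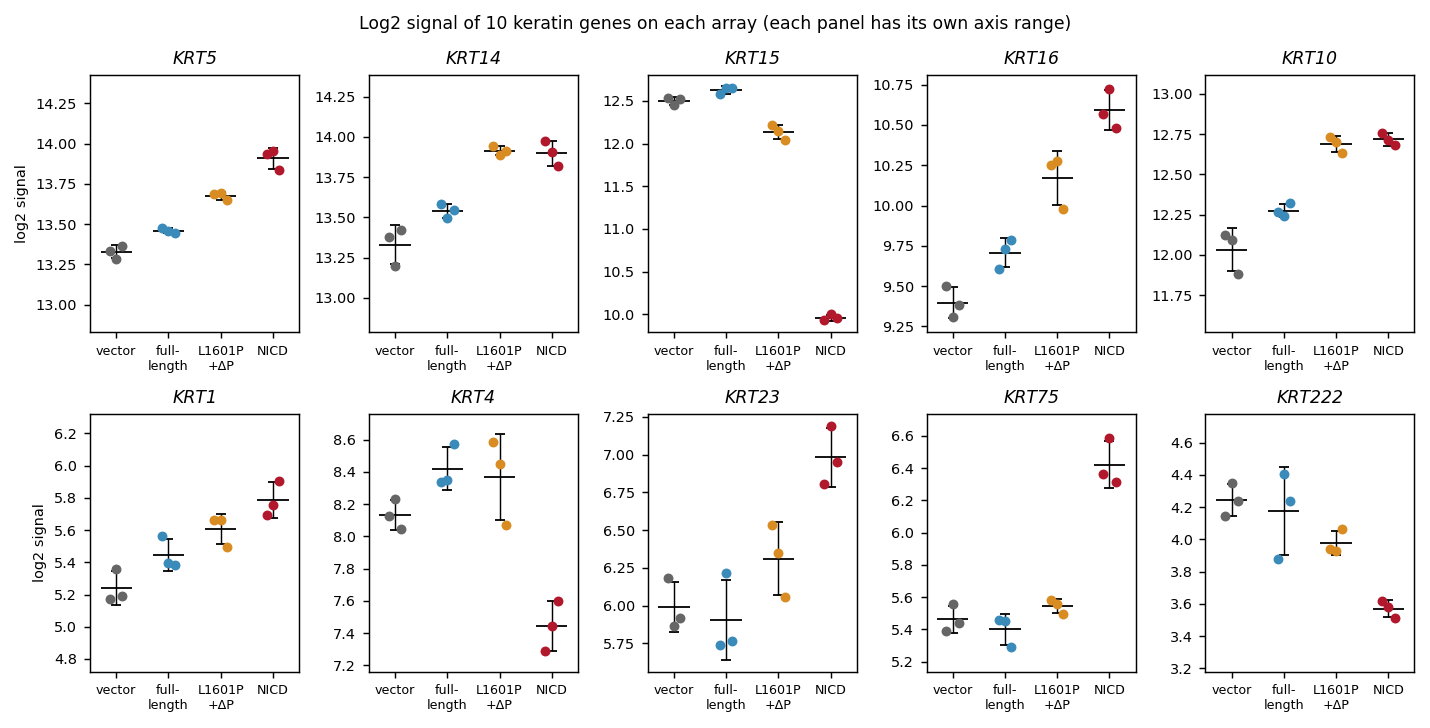
Deposited log2 signal (vertical axis) of keratin genes on each array, by group, 3 arrays a group; each point is 1 array. KRT15 lies near 10 on the 3 NICD arrays and above 12 on the other 9, while KRT5, KRT10, KRT14 and KRT16 are lowest with vector.

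The basal keratins split. KRT15, a type I chain of basal cells, read 12.53, 12.45 and 12.52 for vector, 12.58, 12.65 and 12.66 for full-length Notch1, 12.22, 12.15 and 12.04 for Notch1 L1601P+∆P, and 9.93, 9.998 and 9.96 for NICD. The NICD arrays stood far below the other 9, and the Notch1 L1601P+∆P arrays were below both vector and full-length Notch1 with no overlap. KRT15 fell by 2.54 ± 0.06 (SE) with NICD (limma adjusted p = 4.12e-12) and by 0.36 ± 0.06 with Notch1 L1601P+∆P (adjusted p = 0.00216), a 1.29-fold fall. NICD was 4.52-fold below Notch1 L1601P+∆P (−2.18 ± 0.06, limma adjusted p = 4.74e-11). Full-length Notch1 differed from vector by 0.13 (limma adjusted p = 0.915).

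KRT5 and KRT14, the basal pair, moved the other way. KRT5 read 13.33, 13.28 and 13.37 for vector, 13.48, 13.46 and 13.45 for full-length Notch1, 13.68, 13.69 and 13.65 for Notch1 L1601P+∆P, and 13.94, 13.95 and 13.84 for NICD. No group overlapped another, and the order was vector, full-length Notch1, Notch1 L1601P+∆P, NICD. Full-length Notch1 differed from vector by 0.13 and was not called (limma adjusted p = 0.879). How often groups lie apart over all genes was not computed. KRT5 rose by 0.58 ± 0.05 with NICD (1.5-fold, limma adjusted p = 1.73e-06) and by 0.35 ± 0.05 with Notch1 L1601P+∆P (adjusted p = 0.00127). NICD also exceeded Notch1 L1601P+∆P, by 0.23 ± 0.05 (limma adjusted p = 0.00492).

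KRT14, the type I partner of KRT5, read 13.38, 13.20 and 13.42 for vector, 13.58, 13.49 and 13.54 for full-length Notch1, 13.94, 13.89 and 13.91 for Notch1 L1601P+∆P, and 13.97, 13.91 and 13.82 for NICD. The arrays of Notch1 L1601P+∆P and NICD overlapped each other and lay above all others. KRT14 rose by 0.57 ± 0.07 with NICD (limma adjusted p = 2.50e-05) and by 0.58 ± 0.07 with Notch1 L1601P+∆P (adjusted p = 0.000174). The difference between them was −0.01, with a 95% interval of −0.16 to 0.13 (limma adjusted p = 0.911). In both comparisons with vector, therefore, 2 of the 3 basal keratins rose and 1 fell. Among the 19775 genes tested, 9.54% were called higher and 18.1% lower for NICD, against 2.16% and 2.95% for Notch1 L1601P+∆P. With only 3 genes, nothing is read from this count about the basal class.

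KRT16, the type I keratin of activated and wounded epithelium, was the only member of its class analysed. KRT14, KRT16 and KRT17 are near-identical relatives whose probe sets can share a signal, and KRT14 and KRT16 had 1 probe set each. Such sharing was not tested. It read 9.50, 9.31 and 9.39 for vector, 9.61, 9.73 and 9.79 for full-length Notch1, 10.25, 10.28 and 9.98 for Notch1 L1601P+∆P, and 10.57, 10.72 and 10.48 for NICD. The groups did not overlap. KRT16 rose by 1.19 ± 0.09 with NICD (2.29-fold, limma adjusted p = 6.20e-07) and by 0.77 ± 0.09 with Notch1 L1601P+∆P (adjusted p = 0.0003). NICD exceeded Notch1 L1601P+∆P by 0.42 ± 0.09 (limma adjusted p = 0.00551), and full-length Notch1 differed from vector by 0.31 (adjusted p = 0.814).

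Among the 7 keratins of suprabasal epidermis, 3 rose with NICD and none fell by the limma call, beside 9.54% and 18.1% of all genes. At an unadjusted limma p under 0.05, 1 was lower, as were 23.2% of all genes. KRT10, the type I chain of the early differentiated layers, read 12.13, 12.09 and 11.88 for vector, 12.26, 12.24 and 12.32 for full-length Notch1, 12.73, 12.70 and 12.63 for Notch1 L1601P+∆P, and 12.76, 12.71 and 12.68 for NICD. The Notch1 L1601P+∆P and NICD arrays overlapped each other, with every other array below them. KRT10 rose by 0.68 ± 0.07 with NICD (1.61-fold, limma adjusted p = 5.42e-06) and by 0.66 ± 0.07 with Notch1 L1601P+∆P (adjusted p = 7.32e-05), and these did not differ by the test (0.03, 95% interval −0.12 to 0.17, adjusted p = 0.828). All 3 of its probe sets were called, at 0.66, 0.68 and 0.81 with NICD. Those at 0.68 (the one used) and 0.81 are of a kind whose probes can bind related transcripts.

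KRT1, the type II partner of KRT10, was dim. Its arrays read 5.17, 5.36 and 5.19 for vector, 5.56, 5.39 and 5.38 for full-length Notch1, 5.66, 5.66 and 5.50 for Notch1 L1601P+∆P, and 5.69, 5.76 and 5.91 for NICD. The NICD arrays lay above the other 9, close to the array medians. KRT1 rose by 0.55 ± 0.08 with NICD (limma adjusted p = 0.000209) and by 0.37 ± 0.08 with Notch1 L1601P+∆P (adjusted p = 0.0202); the latter call was lost without vector replicate 1 or 3 or Notch1 L1601P+∆P replicate 1 or 2 (highest adjusted p = 0.0842). KRT78, a type II keratin, rose by 0.40 ± 0.11 with NICD (limma adjusted p = 0.0135), although its NICD and vector arrays overlapped. Its other probe set differed by 0.14 (limma adjusted p = 0.382), and the call was lost with the mean of the probe sets or without vector replicate 1 or 3 or NICD replicate 2 (highest adjusted p = 0.0578).

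The other 4 suprabasal keratins, KRT2, KRT9, KRT77 and KRT80, were not called against vector. KRT80 differed by −0.22 with NICD (limma adjusted p = 0.0754), with its NICD arrays below its vector arrays. KRT9, the keratin of palm and sole skin, differed by 0.14 with NICD (limma adjusted p = 0.321) and by −0.22 with full-length Notch1 (adjusted p = 0.899).

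Of the 5 simple epithelial keratins, 1 rose and 1 fell with NICD, beside 9.54% and 18.1% of all genes. KRT8, the type II chain, rose by 0.37 ± 0.08 with NICD (limma adjusted p = 0.00375), from 9.88 ± 0.05 (SD, n = 3) to 10.26 ± 0.14, and its partner KRT18 fell by 0.24 ± 0.05 (adjusted p = 0.00216), from 12.53 ± 0.05 to 12.28 ± 0.05. For each gene the NICD arrays did not overlap the vector arrays. Each was read by 1 probe set of the kind whose probes can bind related transcripts. KRT7, another luminal chain, differed by −0.14 with NICD (95% interval −0.28 to 0.01, limma adjusted p = 0.172). KRT19 differed by 0.12 with NICD and 0.42 with Notch1 L1601P+∆P (limma adjusted p = 0.549 and 0.0719), and its other probe set by −0.28 and −0.02 (adjusted p = 0.0577 and 0.947). With Notch1 L1601P+∆P no simple keratin was called by limma (before adjustment 1 of 5 was higher and 1 lower at p under 0.05, beside 8.42% and 12.5% of all genes).

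**Figure D2:**
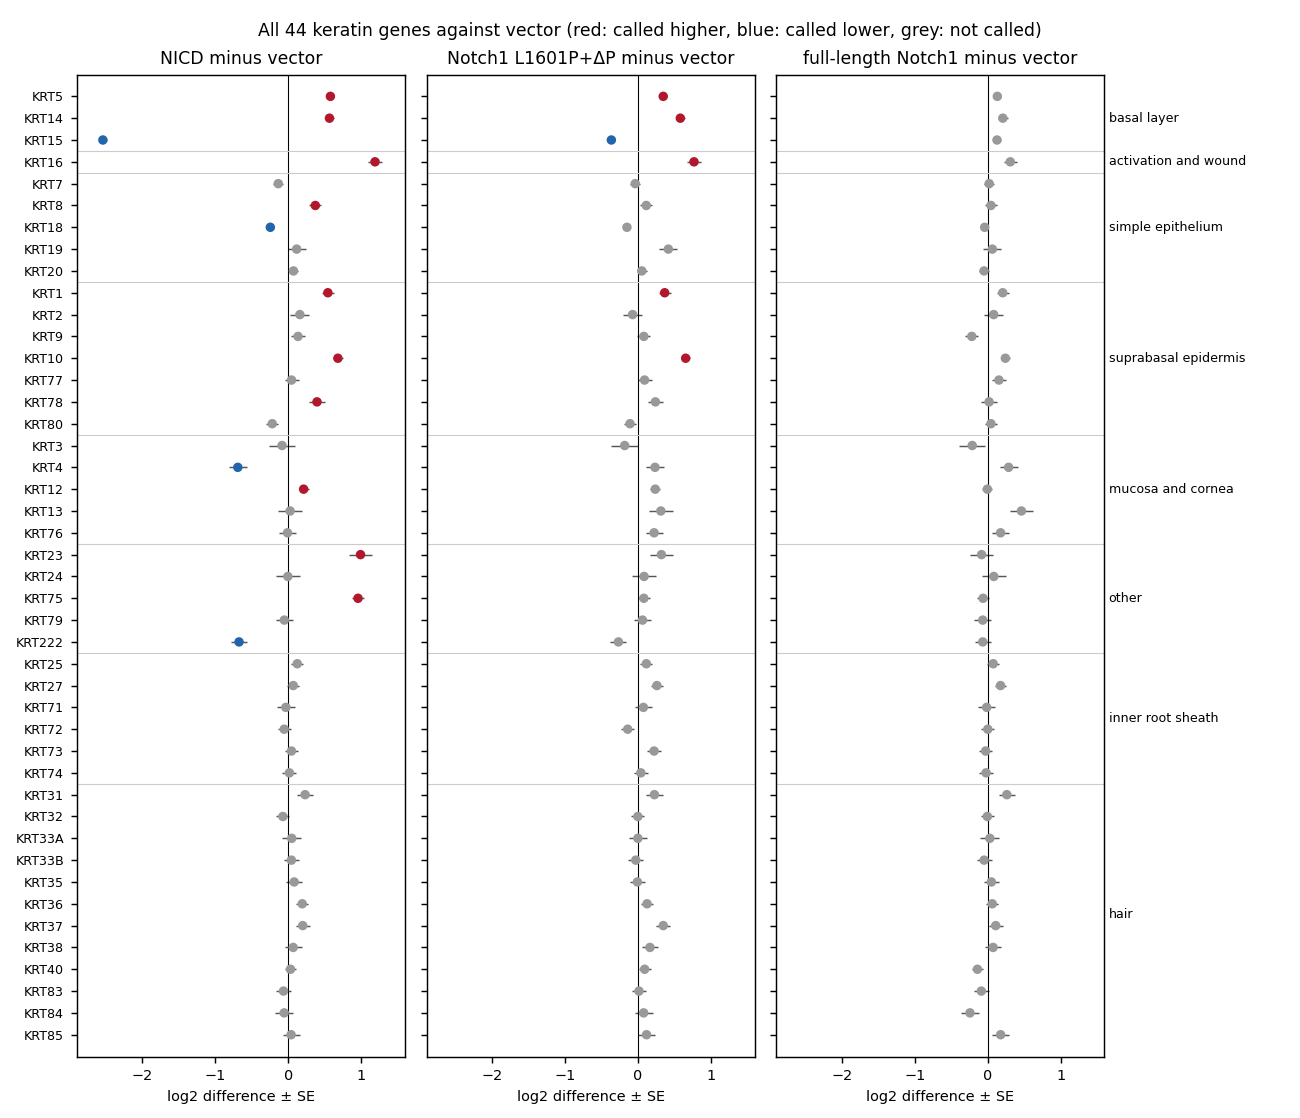
Log2 difference from vector (horizontal axis) of keratin genes, with each Notch1 construct. Bars are ± SE from the limma fit of 12 arrays. KRT15 lies at −2.54 with NICD and −0.36 with Notch1 L1601P+∆P, and KRT16 at 1.19 and 0.77.

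Several keratins were called with NICD and not with Notch1 L1601P+∆P, and for KRT4, KRT8, KRT23, KRT75 and KRT222 the difference between those constructs was itself called. KRT75, a type II keratin of the hair follicle's companion layer, read 5.39, 5.56 and 5.44 for vector, 5.46, 5.45 and 5.29 for full-length Notch1, 5.58, 5.56 and 5.49 for Notch1 L1601P+∆P, and 6.36, 6.59 and 6.32 for NICD. The NICD arrays lay above the other 9; the vector arrays overlapped both other groups, and Notch1 L1601P+∆P lay just above full-length Notch1. KRT75 rose by 0.96 ± 0.08 (1.94-fold, limma adjusted p = 1.04e-06) with NICD, while Notch1 L1601P+∆P differed from vector by 0.08 (95% interval −0.09 to 0.25, adjusted p = 0.587). NICD exceeded Notch1 L1601P+∆P by 0.88 ± 0.08 (limma adjusted p = 4.12e-06).

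KRT23, a type I keratin, read 6.18, 5.87 and 5.92 for vector, 5.74, 6.21 and 5.76 for full-length Notch1, 6.53, 6.35 and 6.05 for Notch1 L1601P+∆P, and 6.81, 7.19 and 6.95 for NICD. Here too the NICD arrays were above all others. It rose by 0.99 ± 0.15 with NICD (1.99-fold, limma adjusted p = 0.000297) and was 0.67 ± 0.15 above Notch1 L1601P+∆P (adjusted p = 0.00738), which differed from vector by 0.32 (adjusted p = 0.254).

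KRT4, a type II keratin of mucosal epithelia such as the oesophagus, read 8.12, 8.23 and 8.05 for vector, 8.34, 8.35 and 8.57 for full-length Notch1, 8.58, 8.45 and 8.07 for Notch1 L1601P+∆P, and 7.29, 7.44 and 7.60 for NICD. NICD was below the other 9 arrays, and the highest array was of Notch1 L1601P+∆P. KRT4 fell by 0.69 ± 0.12 with NICD against vector (limma adjusted p = 0.000935) and lay 1.90-fold below Notch1 L1601P+∆P (−0.93 ± 0.12, adjusted p = 0.000147). A dimmer probe set of KRT4 differed from vector by −0.20 (limma adjusted p = 0.151), and with the mean of the probe sets NICD differed by −0.45 from vector and by −0.59 from Notch1 L1601P+∆P, both still called (adjusted p = 0.00213 and 0.000399). Its usual type I partner KRT13 differed by 0.03 with NICD, 0.31 with Notch1 L1601P+∆P and 0.46 with full-length Notch1, none of them called (limma adjusted p = 0.93, 0.288 and 0.856).

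KRT222 was dim, at 4.15, 4.35 and 4.24 for vector, 3.88, 4.41 and 4.24 for full-length Notch1, 3.94, 3.93 and 4.06 for Notch1 L1601P+∆P, and 3.62, 3.58 and 3.51 for NICD. The NICD arrays were the lowest. It fell by 0.67 ± 0.11 with NICD (limma adjusted p = 0.00045) and another probe set differed by −0.15 (adjusted p = 0.334), with −0.41 for the mean of the probe sets (adjusted p = 0.00542). The difference between NICD and Notch1 L1601P+∆P (−0.41 ± 0.11, limma adjusted p = 0.0194) was lost with the mean of the probe sets or without Notch1 L1601P+∆P replicate 3 or NICD replicate 3 (highest adjusted p = 0.102). KRT12, a type I keratin of the cornea, was among the dimmest at 3.0 ± 0.04 with vector and 3.21 with NICD, a rise of 0.21 ± 0.07 (limma adjusted p = 0.0339) that was lost under 6 of 17 alternatives, among them leaving out vector replicate 2 or 3 or NICD replicate 1 or 3 (highest adjusted p = 0.144).

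The hair and inner root sheath keratins build the hair shaft and the layer around it. None of 12 hair keratins and none of 6 root sheath keratins was called by limma with NICD or with Notch1 L1601P+∆P. Their means over the 12 arrays ran from 3.40 to 6.28 for hair and from 3.16 to 5.58 for root sheath keratins. Most lay under the array medians, which limits what they can show. At an unadjusted p under 0.05, 1 hair keratin was higher with NICD and 1 with Notch1 L1601P+∆P, and 2 root sheath keratins were higher with Notch1 L1601P+∆P, beside 13.1% of all genes with NICD and 8.42% with Notch1 L1601P+∆P. Their differences from vector with NICD ran from −0.07 to 0.23 for hair and from −0.05 to 0.13 for root sheath keratins. With NICD 5 of 24 type I keratins rose and 3 fell, and 5 of 20 type II keratins rose and 1 fell, beside the 9.54% and 18.1% of all genes given above; nothing is read from the split by type.

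The constructs were then compared with each other. Against full-length Notch1, Notch1 L1601P+∆P gave 4 higher keratins (KRT5, KRT10, KRT14 and KRT16) and 1 lower (KRT15), with 1.86% of all genes higher and 1.86% lower. KRT15 fell by 0.49 ± 0.06 (limma adjusted p = 0.000265), KRT10 rose by 0.41 ± 0.07 (adjusted p = 0.00351) and KRT14 by 0.37 ± 0.07 (adjusted p = 0.00643). KRT16 rose by 0.46 ± 0.09 (limma adjusted p = 0.0148) and KRT5 by 0.22 ± 0.05 (adjusted p = 0.0333). The higher count fell to 2 without full-length Notch1 replicate 1, Notch1 L1601P+∆P replicate 1 or Notch1 L1601P+∆P replicate 2, each of which ended the calls of KRT16 (highest adjusted p = 0.0747) and KRT5. KRT5 was also lost without full-length Notch1 replicate 2 or 3, Notch1 L1601P+∆P replicate 3 or vector replicate 1 (9 of 18 alternatives in all, highest adjusted p = 0.123). The lower count was 2 without full-length Notch1 replicate 1, with KRT222 added.

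Against Notch1 L1601P+∆P, NICD gave 5 higher keratins (KRT5, KRT8, KRT16, KRT23 and KRT75) and 3 lower (KRT4, KRT15 and KRT222), with 8.73% of all genes higher and 11.1% lower. KRT8 was higher by 0.26 ± 0.08 (limma adjusted p = 0.041), a call lost under 10 of 18 alternatives, 9 of which left out 1 array: vector replicate 1 or 2, any full-length Notch1 array, Notch1 L1601P+∆P replicate 1 or 3, or NICD replicate 2 or 3 (highest adjusted p = 0.147). KRT14, KRT10 and KRT1, which rose with both constructs against vector, were not called between them, at −0.01, 0.03 and 0.18.

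**Figure D3:**
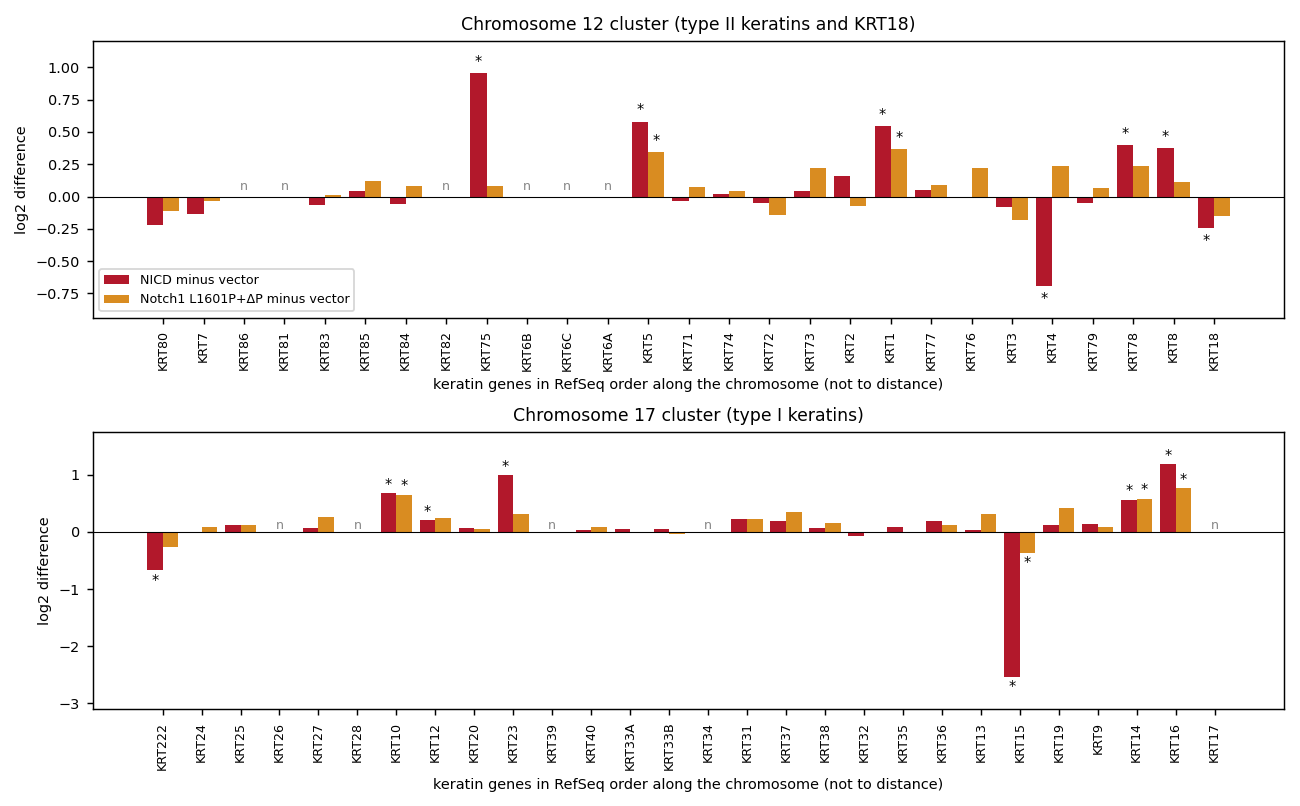
Log2 difference from vector (vertical axis) of the keratin genes with NICD (red) and with Notch1 L1601P+∆P (orange). Genes are in their chromosomal order on chromosomes 12 and 17 (horizontal axis, rank and not distance). An asterisk marks a gene called in that comparison and n a gene not analysed here. With NICD KRT15, at −2.54, lies between KRT13 at 0.03 and KRT19 at 0.12.

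Neighbours in the clusters did not always share a direction. In RefSeq's order, chromosome 12 holds 27 keratin genes, 21 of them with a value, and chromosome 17 holds 28, 23 of them with a value. KRT15 stood between KRT13 (0.03) and KRT19 (0.12) on chromosome 17, and beyond KRT19 and KRT9 followed KRT14 (0.57) and KRT16 (1.19), the keratin with the largest rise with NICD. KRT8 and KRT18, adjacent at the end of the chromosome 12 group, were called in opposite directions. KRT4 (−0.69) lay between KRT3 (−0.08) and KRT79 (−0.05), neither of them called.

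RefSeq promoter sequence (GRCh38.p14, from 250 bases before to 50 after the start site) was used for 29 of the 44 keratins. The following 100 bases end just before the start site of the 4 called keratins with a difference of at least 0.5 that have such a sequence, KRT5 (chr12:52520395-52520494), KRT75 (chr12:52434372-52434471), KRT4 (chr12:52814117-52814216) and KRT10 (chr17:40822615-40822714), each on the minus strand and written 5′ to 3′; capitals mark the letters TATAAA.
KRT5: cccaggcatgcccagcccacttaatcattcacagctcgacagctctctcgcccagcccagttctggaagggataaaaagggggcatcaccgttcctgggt
KRT75: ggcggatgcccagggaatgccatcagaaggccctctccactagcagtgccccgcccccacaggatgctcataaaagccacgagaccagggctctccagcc
KRT4: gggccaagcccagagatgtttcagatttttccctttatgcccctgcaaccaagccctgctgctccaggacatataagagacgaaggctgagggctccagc
KRT10: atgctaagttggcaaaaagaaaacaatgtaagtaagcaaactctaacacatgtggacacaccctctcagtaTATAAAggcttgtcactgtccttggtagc
The first 3 belong to type II genes of the same chromosome 12 group, which moved by 0.58, 0.96 and −0.69 with NICD. TATAAA, the letters of a classical TATA box, was found on either strand in 15 of the 29 keratin promoters (51.7%) against 12% of 27303 promoters in the table, and it lay in 11 of the 16 hair and root sheath promoters and 4 of the other 13. In KRT10 it began 29 bases before the start site. TGGGAA, the core letters of the RBPJ motif, was in 7 of 29 keratin promoters (24.1%) against 24.3% of all, and in none of the 6 promoters of called keratins (KRT4, KRT5, KRT8, KRT10, KRT12 and KRT75). TGANTCA, the AP-1 motif, was in 0 of 29 against 7.76% of all. All 3 motifs were searched on both strands; a missing match says only that these letters are not in this window.

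The genes that assemble or anchor keratin filaments were taken from a list chosen for this purpose, which shares ITGA6 and SFN with the epithelial markers. Of 25 filament partner genes with a value, 8 rose and 11 fell with NICD (median −0.03), and 4 rose and 5 fell with Notch1 L1601P+∆P (median −0.02). The shares over all genes were 9.54% higher and 18.1% lower for NICD, and 2.16% and 2.95% for Notch1 L1601P+∆P. Grouping them after their values were seen, 7 of 11 desmosome genes rose with NICD and 2 fell, while all 4 hemidesmosome genes with a value fell. With Notch1 L1601P+∆P the counts were 4 and 1 of 11, and 0 and 4 of 4. With cyclic loess, the 4 fallen hemidesmosome genes became 2 and the 5 fallen partner genes 3. Leaving out vector replicate 3 or Notch1 L1601P+∆P replicate 1, 2 or 3 gave the same counts. The hemidesmosome count was 3 with the mean of a gene's probe sets, only the 2 groups compared or the replicate block. Leaving out vector replicate 1, NICD replicate 1 or any full-length Notch1 array also gave 3. Full-length Notch1 gave no call by limma among the 25, with 4 higher and 0 lower at p under 0.05 before adjustment, where 2.25% and 3.08% of all genes were.

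Among the desmosomal genes the cadherin DSC3 rose by 0.98 ± 0.07 with NICD (limma adjusted p = 1.57e-07), from 10.19 ± 0.06 to 11.18 ± 0.03 (SD, n = 3). The cadherins DSG3 and DSC2 each rose by 0.93 (limma adjusted p = 3.94e-08 and 9.15e-07), and the plaque protein PKP1 by 0.71 ± 0.11 (adjusted p = 0.000376), or 0.43 with the mean of its probe sets (adjusted p = 0.00393). With Notch1 L1601P+∆P these differences were 0.35, 0.50, 0.42 and 0.37, the last not called (limma adjusted p = 0.0848). PKP2, another plaque protein, fell by 1.41 ± 0.07 with NICD (limma adjusted p = 1.68e-08) and by 0.46 with Notch1 L1601P+∆P (adjusted p = 0.00302).

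The hemidesmosomal integrin subunit ITGB4 fell by 1.97 ± 0.06 with NICD (limma adjusted p = 1.75e-10), from 10.97 ± 0.08 to 9.0 ± 0.12. DST, which encodes the plakin that ties keratin to that integrin, fell by 1.82 ± 0.08 (limma adjusted p = 1.64e-09), and PLEC, which encodes plectin, by 1.17 ± 0.09 (adjusted p = 4.37e-07). ITGA6, the partner subunit of ITGB4, fell by 1.07 ± 0.05 (limma adjusted p = 8.75e-09). ITGA6 was named after its values were seen, to complete the 4. With Notch1 L1601P+∆P they fell by 0.61, 0.46, 0.38 and 0.21. With the mean of a gene's probe sets ITGB4 fell by 1.18 and DST by 0.95 with NICD, and by 0.37 and 0.27 with Notch1 L1601P+∆P, all still called (highest limma adjusted p = 0.0171). The calls of PLEC and ITGA6 with Notch1 L1601P+∆P were lost under 6 and 12 of 18 alternatives, cyclic loess and single arrays left out among them.

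**Figure D4:**
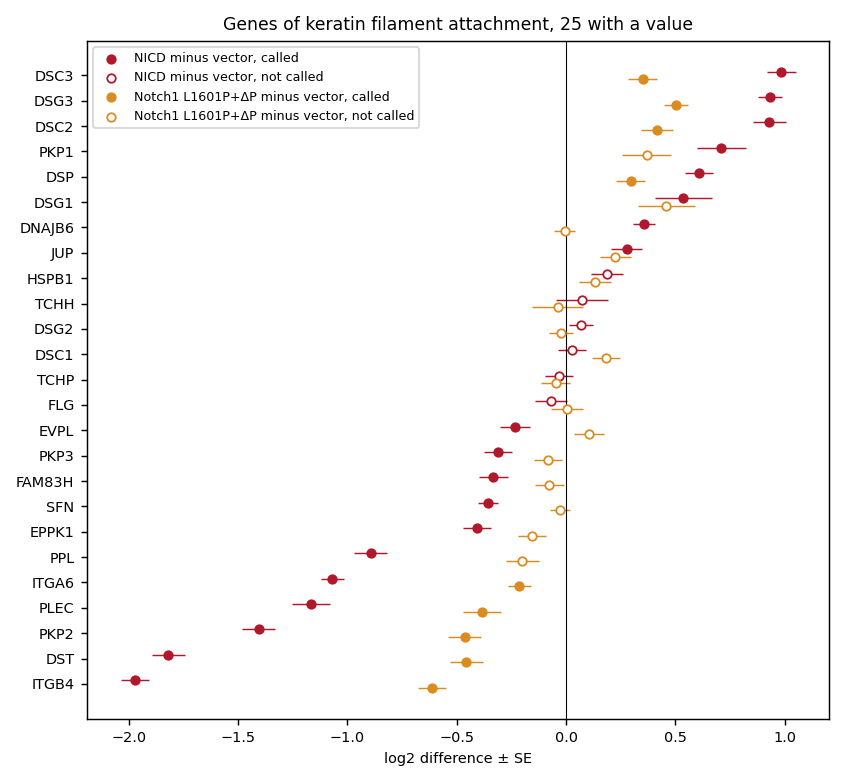
Log2 difference from vector (horizontal axis) of 25 genes of keratin filament attachment with Notch1 L1601P+∆P and with NICD. Bars are ± SE from the limma fit. With NICD the desmosomal cadherins DSC3, DSG3 and DSC2 lie between 0.93 and 0.98, and ITGB4, DST and PLEC between −1.97 and −1.17.

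Of 16 other intermediate filament genes, 2 rose and 1 fell with NICD, beside 9.54% and 18.1% of all genes. The fallen count was 3 without NICD replicate 2. SYNM, which encodes synemin, rose by 1.24 ± 0.09 (limma adjusted p = 3.03e-07), from 5.32 ± 0.16 to 6.57 ± 0.13. PRPH rose by 0.33 (limma adjusted p = 0.0238) and LMNB1, a nuclear lamin, fell by 0.63 (adjusted p = 0.0131); the first call was lost without vector replicate 1 or 3 or NICD replicate 1 or 2, and the second without vector replicate 2 or 3 or NICD replicate 3. VIM, the vimentin gene of mesenchymal and cultured cells, was bright and differed by 0.06 with NICD (limma adjusted p = 0.483). None was called by limma with Notch1 L1601P+∆P or full-length Notch1. At p under 0.05 before adjustment, 1 was higher with Notch1 L1601P+∆P, beside 8.42% of all genes. By the same measure 1 was lower with full-length Notch1, beside 3.08% of all genes.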

How the data were processed

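Total RNA of 12 MCF-10A samples (4 groups of 3) was hybridised to Affymetrix arrays. The deposited values are log2 signals per probe set; the submitters' processing notes name RMA and limma, with versions not given in the sources used here. RMA corrects background and normalises all arrays together, which removes global shifts and compresses dim signals. Of 54675 probe sets, those with 1 gene symbol gave 19775 genes, each read by its probe set of highest mean over the 12 arrays.

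Differences were tested with limma 3.58.1 (R 4.3.3), 1 fit of 12 arrays with 8 residual and 4.09 prior degrees of freedom, two-sided, with p-values adjusted over all 19775 genes within each of 5 comparisons. The code was tested on simulated data. Precision is limited by the number of arrays. The members and lists were chosen with earlier results of these data known. Keratins called against vector with an absolute log2 difference of at least 0.5 are given by array, and the others by difference, group mean, range or count. Up to 4 called partner genes a direction were named by size, and ITGA6 was added after its values were seen. Alternatives were cyclic loess, trend and robust moderation, the mean of a gene's probe sets, only genes at 6 or more, only the groups compared, a replicate block, and leaving out each array. Names, order and promoters came from RefSeq (GRCh38.p14), and none of its coordinates was matched to probes.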

Additional observations from a re-analysis of the deposited data

How the results depend on the processing

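Over 33 calls of a keratin in a comparison and 18 alternatives, 586 values were computed: 546 kept the call, 40 lost it and 0 changed sign, and 26 of the 33 calls were never lost. With only genes at 6 or more, the keratins higher with NICD numbered 6, since dimmer genes were not tested, and those lower with Notch1 L1601P+∆P numbered 2. Trend and robust moderation also gave 2 there and gave 1 higher with full-length Notch1 (KRT10, limma adjusted p = 0.0488). With only the 2 groups compared, 2 keratins were higher with Notch1 L1601P+∆P than with full-length Notch1. Leaving out 1 array gave 2 to 5 higher and 1 to 2 lower keratins in that comparison. The cause of the shifts from moderation was not tested.

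The replicate numbers are not stated to pair the arrays, and same-numbered arrays correlated at −0.11 to 0.16 in their deviations, with 1 of 18 pairs over 0.1 and 2 of 12 arrays closest to their own number. With the replicate block, 10 keratins were higher and 4 lower with NICD, 5 and 1 with Notch1 L1601P+∆P, and 3 higher and 1 lower between Notch1 L1601P+∆P and full-length Notch1, where KRT5 was no longer called.

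Cyclic loess moved the share of higher genes among all calls with NICD from 34.6% to 51.6%, with Notch1 L1601P+∆P from 42.3% to 58.4%, and between Notch1 L1601P+∆P and full-length Notch1 from 50.1% to 62.5%; keratin counts stayed within 1.5 times. Desmosome and hemidesmosome counts with NICD were the same under cyclic loess. With Notch1 L1601P+∆P, 4 desmosome genes were higher as reported, 7 under trend and robust moderation and 6 with only genes at 6 or more, and the whole partner list went from 4 to 7 and 6. Probe sets near or under the array median limit what dim keratins can show.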

Other observations

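Probe sets named for keratin relatives outside the 44 genes gave no call: KRT19P2, KRT8P12, KRT17P5 and the antisense transcript KRT10-AS1 were not called by limma in any comparison with vector. KRT10-AS1 differed by 0.11 with NICD (limma adjusted p = 0.22). The probe set that carries KRT34 beside a second symbol averaged 4.36 for vector, 4.23 for full-length Notch1, 4.39 for Notch1 L1601P+∆P and 4.4 for NICD.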
